A study of Abies pinsapo with 12 samples.

Results

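Needles of Spanish fir (Abies pinsapo) trees in unthinned stands were compared between August 2016 and May 2017. The comparison rests on 4 of the 12 libraries of the series, 2 control libraries per month, and on the 14898 of 329801 assembled transcripts whose deposited value was at least 10 in 2 or more of those libraries. Spanish fir is a drought-sensitive evergreen conifer of the mountains of southern Spain. In that climate May falls in the period of shoot growth, and August in the dry summer, when conifers close their stomata and needles face strong light with little water. Trees in a dense stand compete with their neighbours for that water and for light, which is what thinning a stand relieves.

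All 12 libraries are needles of adult trees growing in the field in the Sierra de las Nieves. Control trees grew in dense, unthinned stands. The reference trees stood where tree density had been lowered in 2004, either in full light (thinning) or under a mesh that cut the light to near control-stand levels (thinning plus shading), with 2 libraries of each per month. The labels give 3 plots of 100 m2 per treatment, but do not say that replicates are separate trees, nor whether a tree was sampled more than once. The p-values therefore measure only the spread between these libraries, which may be technical. Each month was sampled in a different year, so season and year cannot be told apart.

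The deposited values are TPM (a transcript's share of its library, corrected for its length) multiplied by 1 factor per library, referred to as scaled TPM. Such values hold no read numbers, and the depth is unknown. The column sums lay between 856638 and 1179097, and were 920726 and 881168 in control August and 1079711 and 1102096 in control May. The table pairs no identifier with a gene name, so the transcripts are given by identifier with no function, and the needle label was not checked against marker genes. Across the tested transcripts, the control August libraries correlated with each other at r = 0.871 and the control May libraries at r = 0.843. The control May libraries were each nearer to a shaded library of May than to each other, replicate 1 to shaded replicate 2 (r = 0.892) and replicate 2 to shaded replicate 1 (r = 0.898). Each was also nearer to an unshaded thinned library of May, replicate 1 to thinning replicate 2 (r = 0.846) and replicate 2 to thinning replicate 1 (r = 0.869). The replicates of thinning in May stood apart from each other, with a root mean square SD of 1.01 log2 units, against 0.492 in control August, 0.598 in control May and 0.432 to 0.513 in the other 3 groups. They enter the reference values and the shared spread below.

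In control trees, 522 transcripts differed between the months, or 3.5% of those tested, and most of them were higher in August. Of these, 440 were higher in August (2.95% of those tested) and 82 were lower (0.55%), by limma on log2(scaled TPM + 1) at a Benjamini-Hochberg adjusted p under 0.05. The median log2 difference was 3.54 among the higher calls and -1.40 among the lower ones, against -0.09 over all tested transcripts. Among the calls at 10 or more in all 4 control libraries these medians were 1.85 and -1.17. A difference of 4-fold or more was reached by 359 of the 440 higher calls (81.6%) and by 20 of the 82 lower ones (24.4%). Of all tested transcripts with a control difference above or below 0, 9.40% and 2.29% reached it. The calls were chosen by this same difference. The calls stood in 344 assembly components among the higher and 62 among the lower, and 180 of the 440 (40.9%) shared their component with another higher call. Such sharing within the set was found for 65.4% of all tested transcripts and 54.8% of those with a control difference above 0, which are larger sets. Some calls, like other tested transcripts, may be fragments or near-identical copies of 1 gene.

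The way a transcript passed the minimum of 10 bears on these counts. Of the 440 higher calls, 347 reached 10 in both August libraries and in neither May library, and such transcripts had to be higher in August to be tested at all. The same holds for 36 of the 82 lower calls with the months exchanged. Among the 10439 transcripts at 10 or more in all 4 control libraries, 70 were higher in August and 40 were lower (0.671% and 0.383%). The split into directions also moved with the scaling. The higher calls were 84.3% of all calls as deposited, 95.6% after each library was brought to a common sum and 69.0% after quantile normalization.

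The count of calls depended on single libraries, as each control group holds 2. Without control August replicate 1 there were 37 calls, without August replicate 2 there were 292, without May replicate 1 there were 6, and without May replicate 2 there were 13. Of these, 36, 255, 5 and 13 were among the 522. The thinned libraries acted through the shared spread, with 1090 and 1083 calls when thinning May replicate 1 or 2 was left out, 250 and 251 for thinning August replicate 1 or 2, and 301 and 282 for shaded May replicate 1 or 2. A fit of the 4 control libraries alone gave 153 calls.

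The transcript with the largest rise in control trees was TRINITY_DN15726_c0_g1. It stood at 2169 and 254 scaled TPM in the control August libraries and at 2.46 and 0.926 in the control May libraries. Both August libraries were far above both May libraries, although they differed from each other several-fold. Its log2 difference was 8.17 (SE 1.39, n = 2 libraries per month, limma adjusted p = 0.022). The rise was not particular to dense stands: the shaded trees held it at 1730 and 2694 in August and at 1.68 and 2.12 in May, and the unshaded thinned trees at 548 and 30.2 in August and at 0.908 and 6.04 in May. Its difference between control and thinned trees was 0.82 (SE 1.70, limma adjusted p = 1.00).

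The transcript with the next largest rise behaved differently. TRINITY_DN3112_c0_g2 stood at 600.2 and 409 scaled TPM in control August and at 1.70 and 0.805 in control May (log2 difference 7.81, SE 1.31, n = 2 per month, limma adjusted p = 0.022). In August it was at 3.93 and 3.55 in thinning trees and at 29.5 and 15.8 in shaded trees, so both control libraries lay above all 4 of them. In May it was under 6 in all thinned libraries except thinning replicate 2, at 45.3. Its month difference exceeded that of the thinned trees by 6.85 log2 units (SE 1.61, limma unadjusted p = 0.0026, adjusted p = 0.13), which did not pass.

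Both transcripts with the largest fall belong to 1 component. TRINITY_DN816_c0_g2 stood at 0.101 and 1.88 scaled TPM in control August and at 99.7 and 128.0 in control May (log2 difference -6.0, SE 0.73, n = 2 per month, limma adjusted p = 0.0082). TRINITY_DN816_c0_g1 stood at 0.074 and 1.58 in August and at 87.7 and 113 in May (log2 difference -5.92, SE 0.68, limma adjusted p = 0.0079). They may be copies of 1 gene and are not independent. Their May levels were lower in thinned trees, between 2.08 and 17.3 for TRINITY_DN816_c0_g2 and between 3.15 and 14.0 for TRINITY_DN816_c0_g1, while all August libraries of every treatment were under 2. The difference of their month difference from that of thinned trees was -3.42 (SE 0.90) and -3.24 (SE 0.84), with limma adjusted p-values of 0.18 and 0.17, and did not pass.

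These 4 calls were lost without control August replicate 1 (limma adjusted p from 0.055 to 0.17) and without either control May library (from 0.056 to 0.13). That of TRINITY_DN3112_c0_g2 was also lost without control August replicate 2 (0.074), and that of TRINITY_DN15726_c0_g1 in a fit of the 4 control libraries alone (0.077). Their log2 differences kept their sign, with ranges over the 12 fits of 6.63 to 9.72 for TRINITY_DN15726_c0_g1, 7.53 to 8.10 for TRINITY_DN3112_c0_g2, -6.69 to -5.31 for TRINITY_DN816_c0_g2 and -6.55 to -5.29 for TRINITY_DN816_c0_g1.

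**Figure D1:**
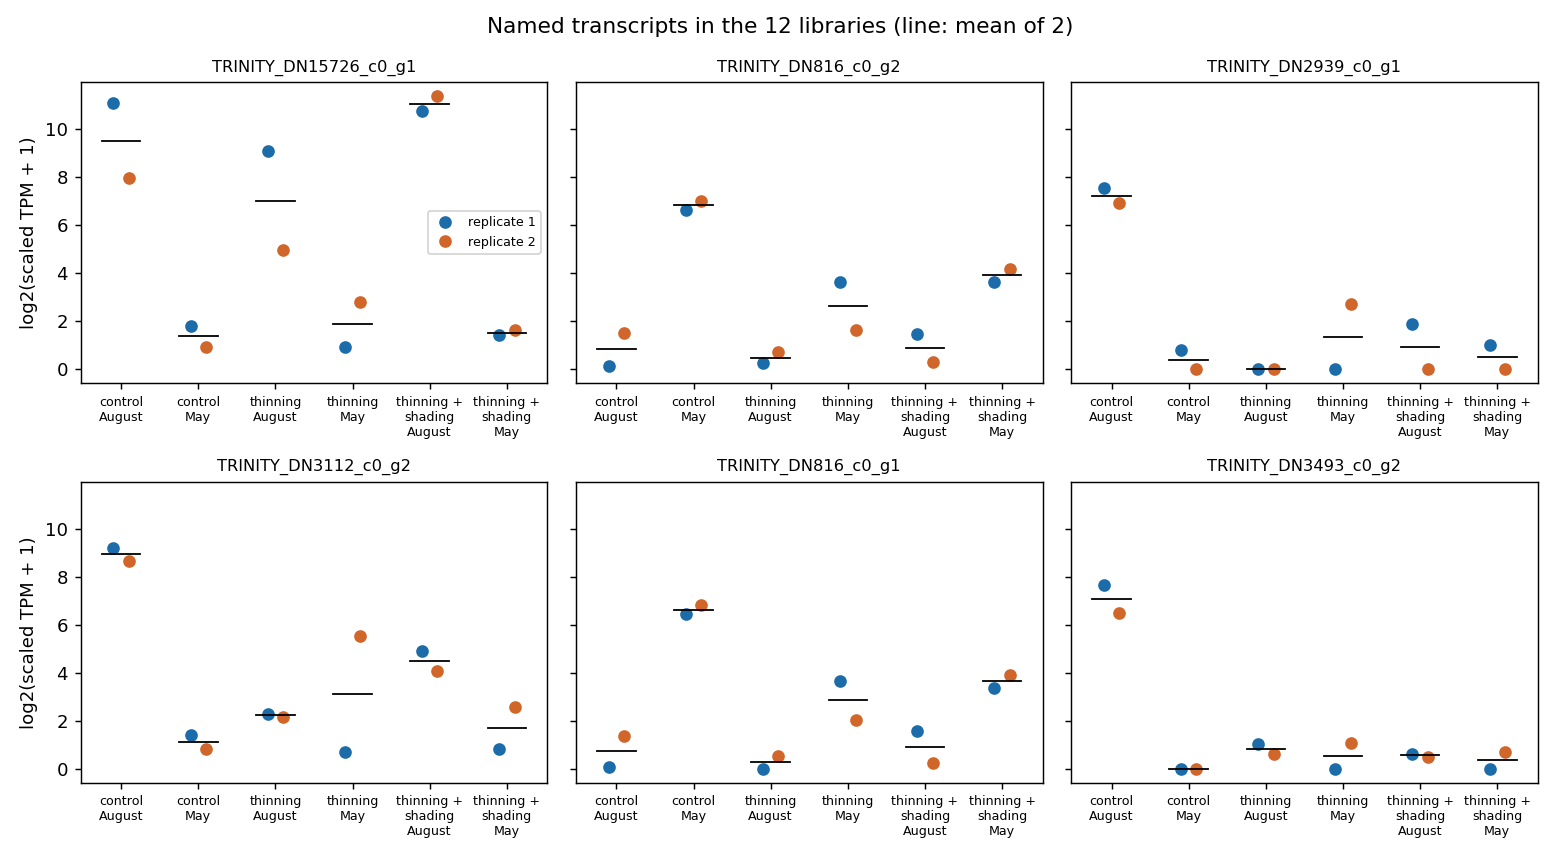
Level of the 6 named transcripts that passed their test, as log2(scaled TPM + 1), in the 2 libraries of each of the 6 groups; the colour gives the replicate number and the line the mean of 2. TRINITY_DN15726_c0_g1 is high in August in every treatment, TRINITY_DN3112_c0_g2, TRINITY_DN2939_c0_g1 and TRINITY_DN3493_c0_g2 stand highest in control August, and the DN816 pair stands highest in control May.

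The thinned trees gave the levels of the same transcripts in stands opened in 2004. Their libraries do not enter the control difference itself, but they enter the spread against which it was called. As the 440 were called for high control August values, their height there is a description of how they were chosen. The levels in thinned trees entered the choice only through the spread, which was moderated along the mean level over all 12 libraries. The 440 transcripts higher in August in control had a median level of 48.7 and 28.9 scaled TPM in the control August libraries and of 2.47 and 2.03 in the control May libraries. In thinning trees the median was 4.14 and 3.43 in August, and 2.42 and 5.58 in May. In shaded trees it was 7.02 and 4.77 in August, and 2.46 and 2.80 in May. The medians of the 2 months overlapped in thinning trees, while in shaded trees both August medians lay above both May medians. The median over all tested transcripts was 19.2 to 22.0 in the 12 libraries. As a share of a library's summed value, the 440 transcripts held 4.78% and 3.15% in control August and 0.400% to 1.35% in the other 10 libraries.

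**Figure D2:**
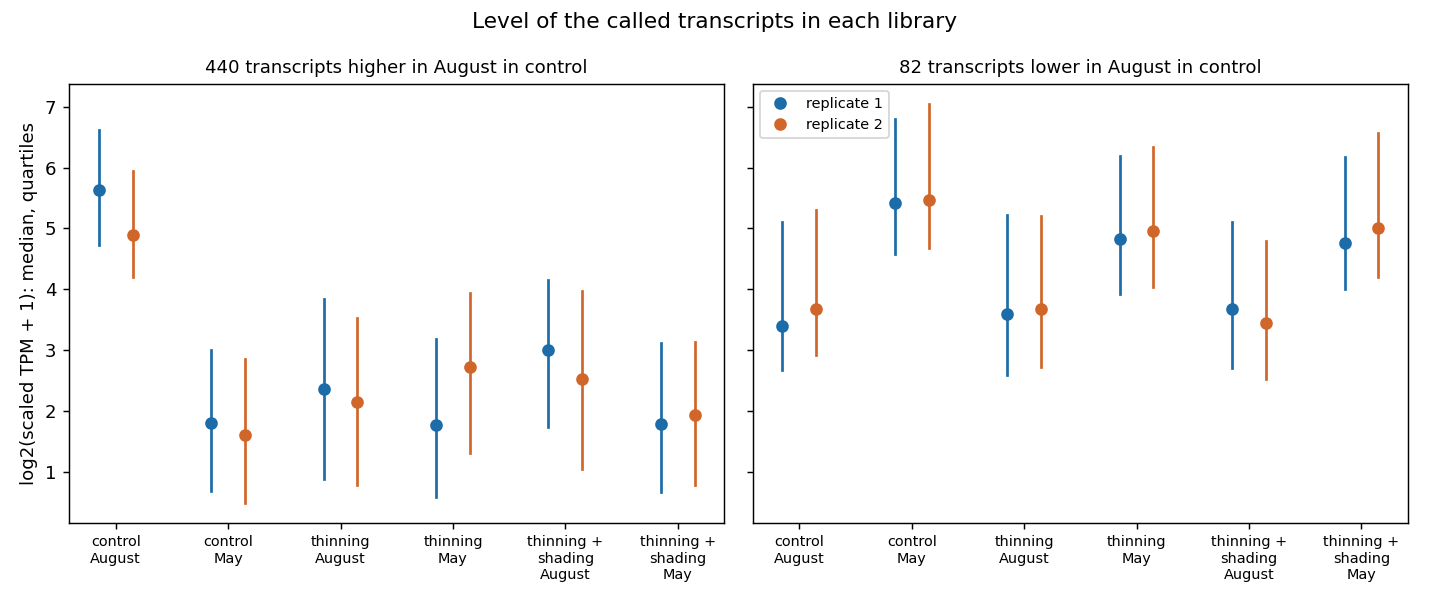
Level of the transcripts called between the months in control trees, in each of the 12 libraries, as the median (point) and quartiles (line) of log2(scaled TPM + 1); the colour gives the replicate number. The control libraries show how the transcripts were chosen; in the thinned libraries the median of the 440 lies between 2.42 and 7.02 scaled TPM, and that of the 82 is lower in every August library than in every May library.

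The 440 rises were smaller on the median in thinned trees, which can follow from choosing them by a large control difference. Their median August minus May difference was -0.19 log2 units in thinning and 0.60 in thinning plus shading, against 0.02 and -0.03 over all tested transcripts. The value in thinning turned on the May library: it was 0.25 against May replicate 1 and -0.40 against May replicate 2. It was also above 0 on a common sum (0.33), without either control May library (0.49 and 0.29), without control August replicate 1 (0.14) and without thinning May replicate 2 (0.39), so its sign is not settled. The shaded median stayed above 0, between 0.10 with no filter and 0.89 on a common sum. The difference stayed under 2-fold in either direction in both thinned treatments for 250 of the 440 (56.8%), against 66.7% of the 6371 tested transcripts with a control difference above 0. On the means, 55 were 2-fold or more higher in both (12.5%, against 7.13%), 73 in shaded trees alone (16.6%, against 8.18%) and 13 in unshaded trees alone (2.95%, against 13.1%). The sign was the same in thinning for 181 of the 440 (41.1%) and in thinning plus shading for 376 (85.5%), against 66.8% and 70.9% of all tested transcripts and 71.4% and 72.03% of those with a control difference above 0. Both control August libraries lay above all 8 thinned libraries in 376 of the 440, or 85.5%, against 7.93% of all tested transcripts and 17.2% of those with a control difference above 0. High control August values chose these transcripts, so nothing is read from that share. The same held for 53 of the 70 higher calls at 10 or more in all 4 control libraries, which were chosen by those values too. Fewer cells of a type and less RNA per cell cannot be told apart in whole needles.

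The 82 falls had a like median in thinned trees. The median log2 difference was -1.06 in thinning and -1.40 in thinning plus shading, beside -1.40 in control. The sign was the same in 75 of the 82 in thinning (91.5%) and in 81 in thinning plus shading (98.8%). Of all tested transcripts with a control difference below 0, 63.3% and 70.1% had the same sign. A fall of 2-fold or more in both was found in 38 of the 82 (46.3%, against 4.52% of all with a control difference below 0). Of the 82, 23 were called the same way in thinning (28.0%), 43 in thinning plus shading (52.4%) and 13 in both (15.9%). Among all with a control difference below 0 these shares were 1.44%, 2.29% and 0.434%. Of the 440 rises, 34 were called the same way in thinning (7.73%), 32 in thinning plus shading (7.27%) and 23 in both (5.23%). Among all with a control difference above 0 the shares were 3.74%, 1.90% and 0.926%, so shared calls exceeded the background in both directions. The calls of every treatment rest on the same spread of a transcript, estimated over all 12 libraries. A control call therefore favours transcripts with a small spread in thinned trees too, and the background was not chosen in this way. Part of the excess can follow from that choice, and how much was not tested. Rises and falls were not tested against each other. All 4 thinned August libraries lay below all 4 thinned May libraries in 65 of the 82, or 79.3%. The same held for 9.36% of all tested transcripts and 15.7% of the 8527 with a control difference below 0. The choice of a small spread can raise the share among the 82 here too. Among the 440 rises all 4 thinned August libraries lay above the May ones in 82, or 18.6%, against 10.2% of all tested transcripts but 21.4% of those with a control difference above 0. The median level of the 82 was 9.59 and 11.8 scaled TPM in control August and 41.6 and 43.3 in control May, and in thinned trees 9.96 to 11.8 in August and 26.2 to 31.3 in May. In 31 of the 82 both control May libraries lay above all 8 thinned libraries, or 37.8%, against 5.41% of all tested and 8.90% of those with a control difference below 0, a share that rests on the May values that chose them.

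**Figure D3:**
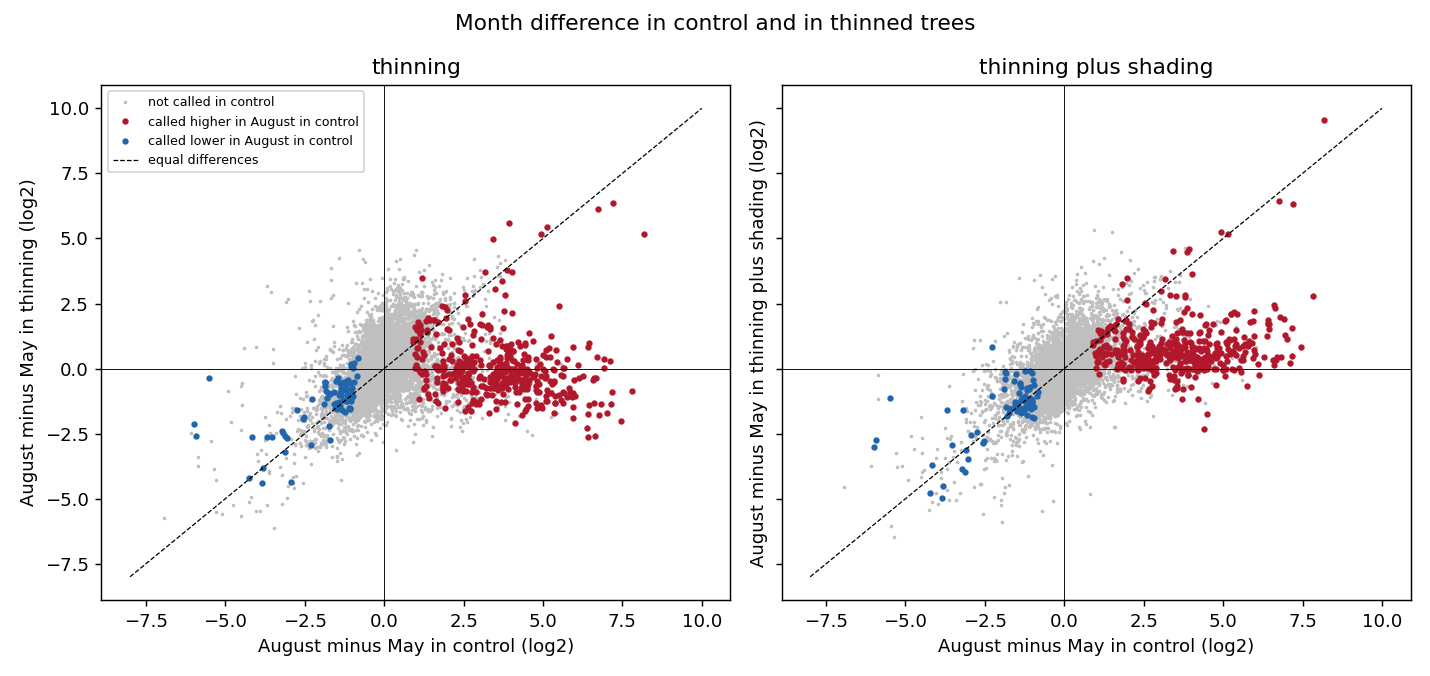
August minus May difference in control trees (horizontal, log2) against that of the 2 thinned treatments, unshaded and shaded (vertical, log2) for the 14898 tested transcripts; red and blue points were called higher and lower in August in control, and the dashed line marks equal differences. Most red points lie near 0 on the vertical axis, at medians of -0.19 and 0.60, while the blue points have medians of -1.06 and -1.40.

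On the same 14898 transcripts, the month test gave 400 calls in thinning (2.68%), 270 higher in August (1.81%) and 130 lower (0.873%). It gave 321 in thinning plus shading (2.15%), 126 higher (0.846%) and 195 lower (1.31%). Of the 522 control calls, 57 were called in the same direction in thinning, which is 10.9% of the control calls and 14.3% of the thinning calls. In thinning plus shading 75 were, or 14.4% and 23.4% of the 2 lists. The calls of all 3 treatments shared 36 transcripts in 1 direction, 23 higher and 13 lower, or 6.90% of the control calls. Of all tested transcripts, 0.644% were called in both thinned treatments in the direction of their control difference. The sets of libraries do not overlap, but the treatments share 1 estimate of the spread, which favours shared calls. A call in one treatment and not in another does not show that they differ, so the difference was tested itself.

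The month difference of control trees differed from the mean month difference of both thinned treatments in 71 transcripts, or 0.477% of those tested (limma, adjusted p under 0.05). In 69 of them (0.463%) the August excess was larger in control, and in 2 (0.0134%) it was smaller. The filter on control libraries bears on this split, since transcripts high in thinned August alone were not tested, and with the filter over all 12 libraries there were 0 calls (limma; 1263 at an unadjusted p under 0.05). All 69 were among the 440 higher calls, which share the control libraries with this test, and 0 of the 71 were among the 82 lower calls. The median level of the 69 was 76.4 and 44.7 scaled TPM in control August, 1.84 and 2.15 in control May, 2.33 to 5.12 in the 4 thinned August libraries and 1.79 to 4.38 in the 4 thinned May libraries. Of the 69, 55 had reached 10 only in the August libraries of control, and 11 were at 10 or more in all 4 control libraries. At an unadjusted p under 0.05 by limma, the August excess was larger in control in 743 transcripts (4.99%) and smaller in 394 (2.64%).

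TRINITY_DN3493_c0_g2 stood at 204 and 90.9 scaled TPM in control August and was listed at 0 in both control May libraries. The 8 thinned libraries held it at 1.11 or less in both months. The control August libraries were thus the only ones in which it was above that level. The difference between the control and the thinned month differences was 6.85 (SE 0.72, n = 2 libraries per group, limma adjusted p = 0.030), a value on the log2(scaled TPM + 1) scale that depends on the added 1.

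TRINITY_DN2939_c0_g1 stood at 185 and 120.3 scaled TPM in control August and at 0.734 and 0 in control May. It was listed at 0 in both thinning August libraries, stood at 2.67 and 0 in shaded trees in August, and reached 5.51 in thinning May replicate 2, its highest thinned value. The groups outside control August overlapped with each other, and all lay far below it. The difference of differences was 7.29 (SE 1.17, n = 2 libraries per group, limma adjusted p = 0.0497).

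The 2 transcripts with a smaller August excess in control are outside the rule for naming and were named after their values had been seen. TRINITY_DN2980_c0_g2 stayed at 11.6 and 12.01 scaled TPM in control August and 11.1 and 9.70 in control May. In August it was at 40.9 and 36.3 in thinning and at 35.6 and 26.7 in shaded trees, and in May between 4.81 and 8.52 in all 4 thinned libraries. The month difference seen in thinned trees was thus not seen in control (difference of differences -2.04, SE 0.25, n = 2 per group, limma adjusted p = 0.030). TRINITY_DN7689_c0_g3 was at 19.9 and 19.3 in control August and 23.0 and 29.0 in control May, but at 45.5 and 46.5 in thinning and 31.4 and 33.3 in shaded trees in August, and between 11.5 and 24.2 in thinned trees in May (difference of differences -1.505, SE 0.24, n = 2 per group, limma adjusted p = 0.0497).

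No transcript with a smaller August excess in control passed both the test and the level of 50 that the rule asks for, so the 2 with the smallest unadjusted p are given as uncalled. TRINITY_DN29927_c0_g2 was at 49.4 and 48.2 scaled TPM in control August and 57.4 and 55.8 in control May. It was at 85.0 and 79.6 in thinning August and at 56.2 and 71.8 in shaded August (difference of differences -0.97, SE 0.22, n = 2 per group, limma adjusted p = 0.11). Against thinning alone the difference was -1.10, and against thinning plus shading -0.85. TRINITY_DN9796_c1_g2 was at 113 and 96.6 in control August and 68.2 and 82.2 in control May. It was at 209 and 195 in thinning August but at 100.9 and 87.7 in shaded August (difference of differences -1.07, SE 0.26, n = 2 per group, limma adjusted p = 0.15). Its difference was -1.77 against thinning alone and -0.36 against thinning plus shading, so it lay mostly with the unshaded trees.

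The tests of the difference stood close to their threshold. Without 1 library the 71 calls became 0 in 9 of 12 cases, those without control August replicate 1, either control May library, or any library of thinned trees other than thinning May. There were 94 calls without control August replicate 2, 276 without thinning May replicate 1 and 150 without thinning May replicate 2. The count was 0 when transcripts at 10 or more in any 2 of the 12 libraries were tested and 1 with the replicate number as a block. Taken against single treatments, the control month difference differed from that of thinning in 62 transcripts (0.416%), 56 with a larger (0.376%) and 6 with a smaller (0.0403%) August excess in control. It differed from that of thinning plus shading in 0 by limma, with 907 transcripts (6.09%) at an unadjusted p under 0.05 and a smallest adjusted p of 0.13. The counts of 62 and 0 do not show that the thinned treatments differ from each other, which was not tested. Among the 69, called on the mean of both, the median difference was 4.72 log2 units against thinning and 4.13 against thinning plus shading. All 69 had an unadjusted p under 0.05 by limma against each treatment.

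Counts that need no test gave the control August libraries the largest number of transcripts held by 1 group. Over the whole table of 329801 transcripts, 316 were at 10 or more in both control August libraries and under 10 in the other 10 libraries. The same count was 50 for thinning August, 46 for thinning plus shading August, 34 for control May, 27 for thinning plus shading May and 25 for thinning May. With the other 10 libraries under 1, the count was 29 for control August and 0 for each of the other 5 groups. The groups are not on an equal footing in these counts. A transcript high in both thinned groups of a month is counted for neither, whereas control has no second unthinned group. The unlike replicates of thinning May also leave fewer transcripts that can reach 10 in both. Within control trees, 129 transcripts were at 10 or more in both August libraries and under 1 in both May libraries, and 12 showed the reverse. Of the 129, 88 were under 1 in both thinning August libraries, 50 in both shaded August libraries, and 4 and 5 reached 10 in both August libraries of thinning and of thinning plus shading. The 129 were chosen by high control August values. No share over all tested transcripts stands beside these thinned counts, so nothing is read from them. A difference of at least 2 log2 units in all 4 pairs of an August and a May library was shown by 386 transcripts higher in August (2.59%) and 56 lower (0.376%) in control. In thinning the counts were 60 (0.403%) and 38 (0.255%), and among the shaded libraries 79 (0.53%) and 80 (0.537%). These 14898 transcripts were filtered on control libraries alone, so ones high in thinned trees alone are not counted and the thinned counts are not on an equal footing with control. Of the 386, 201 differed by less than 2-fold in both thinned treatments, and of the 56, 0 did. The same held for 66.7% of the tested transcripts with a control difference above 0 and 75.2% of those with one below 0. The 201 are therefore not read as rises of control alone. These limits were set after the values had been seen.

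**Figure D4:**
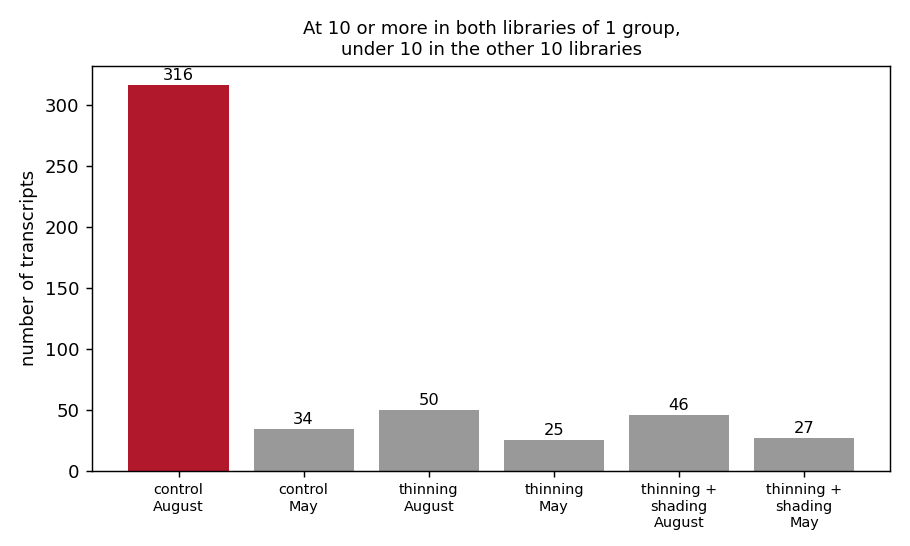
Number of transcripts, over the whole table, at 10 scaled TPM or more in both libraries of 1 group and under 10 in the other 10 libraries. Control August has 316, and the other 5 groups have between 25 and 50. A transcript high in both thinned groups of a month is counted for neither, so control and thinned groups are not on an equal footing.

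The 2 control August libraries were not level in the transcripts high there. In 381 of the 440 higher calls (86.6%) control August replicate 1 was above replicate 2, and in 68 of the 69 calls of the difference, against 49.8% of all tested transcripts and 62.3% of those with a control difference above 0. The median of replicate 1 minus replicate 2 was 0.59 log2 units among the 440 (quartiles 0.26 and 0.97) and 0.67 among the 69 (quartiles 0.42 and 0.97), against 0.00 over all tested transcripts (quartiles -0.24 and 0.26). Among the 82 lower calls it was -0.21. Both control May libraries were nearly level in the 440, at a median difference of 0.05.

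The 2 unlike control May libraries were also compared singly with the mean of control August. Among all tested transcripts, 493 were 4-fold or more higher in August against both May libraries, of 666 against replicate 1 and 686 against replicate 2. For falls, 98 were lower by 4-fold or more against both, of 365 against replicate 1 and 215 against replicate 2. The sign of the difference depended on the May library for 4321 transcripts (29.0%), of which 30 were 4-fold or more in opposite directions.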

How the data were processed

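Per the labels' protocols, poly(A) RNA of needles was sequenced as 150 bp read pairs (Illumina HiSeq). The same protocol text speaks of pine roots, whereas the tissue and organism labels say fir needles, and the samples were treated as such. Trimmomatic, RSEM and DESeq2 are listed, with no version, per the submitters' processing notes. How the assembly and the scaling were made is not given in the sources used here. Values as deposited are a signal whose nature was worked out from the values: once a column is rescaled, 99.3% or more of its nonzero entries fall on a grid of 0.01, to within 0.1 of a grid step, so they are TPM with 2 decimals times 1 factor per library. No reads could be recovered, so tests on counts were not run. Precision is limited by 2 libraries per group.

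Columns were matched to samples by the samples' descriptions, and groups were taken from titles. Transcripts at 10 or more in at least 2 of the 4 control libraries were tested on log2(value + 1) with limma 3.58.1 in R 4.3.3: 12 libraries, 6 group means, 6 residual degrees of freedom, moderated along an intensity trend, two-sided, with Benjamini-Hochberg adjustment over all 14898 transcripts in each contrast. Fold changes on this scale understate those of low transcripts. The fit was tested on simulated data with 1 spread per transcript in all groups, which does not cover the wider spread of thinning May. Named transcripts are, for the month difference and for the difference from thinned trees, up to 2 calls per direction with the largest value, a control mean of 50 or more in the higher month and both of its libraries above both of the other month; where no call meets this, up to 2 with the smallest p are given as uncalled. The comparison and its lists were chosen with earlier results of these data known. Other pseudocounts, filters, scalings, a replicate block, a fit of the control libraries alone and each library left out were tried.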

Additional observations from a re-analysis of the deposited data

Results flagged for a closer look

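The month difference of control trees differed from the mean month difference of the thinned trees in 71 transcripts, by a test of that difference itself (limma, adjusted p under 0.05, 2 libraries per group). The named ones among them are TRINITY_DN2939_c0_g1, with a difference of differences of 7.29 log2 units, TRINITY_DN3493_c0_g2, with 6.85, TRINITY_DN2980_c0_g2, with -2.04, and TRINITY_DN7689_c0_g3, with -1.505. Over the fits without 1 of the 12 libraries these ranged from 6.62 to 7.97, 6.27 to 7.43, -2.14 to -1.94 and -1.66 to -1.35. All 4 kept their calls without either thinning May library, and TRINITY_DN3493_c0_g2 and TRINITY_DN2980_c0_g2 also without control August replicate 2; they lost them without any other single library (limma adjusted p from 0.051 to 0.28). All 4 also lost their calls with the replicate number as a block (0.082, 0.0501, 0.0501 and 0.091, in the order above) and with the filter over all 12 libraries (0.12, 0.061, 0.061 and 0.11). Over the settings that keep all libraries, calls were made in 3 of 8 for TRINITY_DN2939_c0_g1, 5 of 8 for TRINITY_DN3493_c0_g2, 4 of 7 for TRINITY_DN2980_c0_g2 and 3 of 7 for TRINITY_DN7689_c0_g3. With so few libraries in a group, single libraries were not tested for standing apart.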

How the results depend on the processing

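The control month test called 522 transcripts. It called 410 with a pseudocount of 0.5, 732 with 8, 211 with the filter over all 12 libraries, 185 with a filter of 50, 785 with no filter, 804 on a common sum, 919 after quantile normalization and 153 in the control libraries alone. Without 1 library it called 6 to 1090. The common sum moved the median difference of all tested transcripts from -0.09 to 0.17. For the difference from both thinned treatments (71), the counts were 26 and 307 with pseudocounts of 0.5 and 8, 0 with the filter over 12 libraries (limma; 1263 at an unadjusted p under 0.05), 17 with a filter of 50, 79 with no filter, 88 on a common sum, 164 after quantile normalization and 0 to 276 without 1 library. For the difference from thinning alone (62), they were 19, 327, 0 (limma; 1768 unadjusted), 20, 20, 68, 187 and 0 to 843 in the same order. For the difference from thinning plus shading (0), a pseudocount of 8 gave 120 and the rest 0.

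With the replicate number as a block, the 4 counts were 364, 1, 0 and 0 (limma; 1453 and 827 unadjusted for the last 2). The numbers are not said to pair trees, and the deviations of control August and May replicates correlated at -0.325. Those of control May correlated at -0.568 with thinning May and -0.418 with shaded May, and thinning May and shaded May at 0.501, so same-numbered May libraries did not deviate alike throughout. The median difference in thinning plus shading among the lower calls was 0.81 without control May replicate 1, where only 1 lower call was left, and -2.33 without thinning plus shading May replicate 1, against -1.40. No log2 difference of a named transcript changed sign. The causes were not tested.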
